A study of Mus musculus and Homo sapiens
Mus musculus with 12 samples.

Results

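The myelin genes Mbp, Mobp, Mog, Mag, Cnp, Bcas1, Mal and Opalin were followed through mouse brain nuclei profiled by a droplet method for total RNA. The members are the rows of the 7 brain count files that carry these 8 of 34496 gene symbols. The brains came from young adult male wild-type C57BL/6J mice, without a transgene or a drug, and all 7 libraries share this background. Nuclei were taken from brain that had been frozen or from fresh brain, and their RNA was reverse transcribed with random primers that did or did not carry a preindex, a barcode read together with the droplet barcode so that nuclei sharing a droplet can be told apart. The groups were frozen without preindex (2 libraries), frozen preindexed (2), fresh without preindex (2) and fresh preindexed (1). Titles and treatment fields contradicted each other about the primer in 4 of 7 libraries, and groups follow the titles; a barcode had 40 nucleotides wherever the title named a preindex and 30 elsewhere. No label says that the libraries of a group came from separate animals, so every p-value below measures the spread between these libraries, which may be technical.

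Myelin is the lipid-rich sheath that oligodendrocytes wrap around axons in the brain. Oligodendrocytes arise from oligodendrocyte precursor cells (OPCs), which divide, stop dividing, pass through a premyelinating stage known for Gpr17 and Enpp6, and then make the sheath. Mbp, myelin basic protein, holds the inner faces of the membrane together, and Mobp is a small protein of the same compact layers. Mag and Mog are membrane proteins of the sheath, Mag on the side that faces the axon and Mog on the outer surface. Cnp is an enzyme of the uncompacted channels, Mal is a membrane protein of lipid rafts, Opalin is an oligodendrocyte membrane protein, and Bcas1 is known for oligodendrocytes that have just begun to make myelin. The Mbp locus also gives rise to golli transcripts, which are known from neurons and other cells, and Mal is known from kidney tubules.

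The libraries held 11198 nuclei and 180739290 UFIs (unique fragment identifiers, which count each cDNA fragment once), with 8605214 to 42439731 UFIs per library and a median of 9011.5 to 27543 per nucleus. Of these UFIs, 46647, or 0.0258%, lay on the 8 genes. UFIs were assigned to whole genes, introns included, so the transcripts of 1 locus could not be separated. In the GRCm38 annotation the spans run from 12656 bp for Mog (chr17:37010743-37023398) to 110492 bp for Mbp on chromosome 18, and exons cover 4.67% of the span of Bcas1 (chr2:170346991-170427845) and 25.9% of that of Mag (chr7:30899176-30914873). Mobp lies at chr9:120149707-120181484, Mal at chr2:127633226-127656695 and Opalin at chr19:41061710-41077113. Cnp (chr11:100574904-100591729) overlaps Dnajc7 on the opposite strand by 8912 bp, and although the methods describe UFIs as strand-specific, the setting of the gene counter is not given in the sources used here; whether UFIs of the shared bases were kept apart was not tested. Dnajc7 had 440 UFIs in the oligodendrocyte lineage cluster described next, and Cnp had 703. Over all nuclei the order was the reverse, with 11827 UFIs for Dnajc7 and 1289 for Cnp. In the neuron-like nuclei, also described next, Dnajc7 was at 0.644 UFIs per 10000 and Cnp at 0.0316. The part of Dnajc7 in the Cnp values of neuron-like nuclei was not tested.

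Nuclei were clustered without the 8 genes, and clusters were named from markers that exclude them. Oligodendrocytes and OPCs fell into 1 cluster of 362 nuclei (3.23% of all), here called the lineage cluster, in which 13 of 13 oligodendrocyte markers and 10 of 10 OPC markers exceeded their mean over the remaining clusters by more than 2-fold. It also took in barcodes with neuronal transcripts: 177 of its nuclei held at least 10 UFIs of neuron markers per 10000, a limit chosen after the values had been seen. Such nuclei made up 55.9% to 80% of the lineage cluster in the 4 libraries without preindex and 32.4% to 43.8% in the 3 preindexed libraries. Clusters with marker sets of cells other than neurons, kidney or liver were clustered a second time. Nuclei under the neuron-marker limit and those at or over it were clustered separately, so the limit itself took part in dividing the classes. This second clustering gave 66 OPC-like nuclei, 29 nuclei led by Gpr17 and Enpp6, 34 nuclei led by Cnksr3, 65 oligodendrocyte-like nuclei and 376 barcodes with markers of both glia and neurons. The oligodendrocyte-like nuclei were few in each library, from 2 to 18, and neuron-like nuclei numbered 9922. Kidney tubule-like nuclei appeared in the 2 frozen preindexed libraries only (270 and 213), 20 liver-like nuclei in the fresh preindexed library only, and 84 cerebellar granule nuclei in the libraries without preindex only. Between libraries, 32 barcodes occurred in 2 of them.

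Across the lineage the 8 genes did not appear together. In OPC-like nuclei Bcas1 made up most of the UFIs of the 8 genes. In the Gpr17 and Enpp6 nuclei Bcas1 was at its highest and Mbp was high, while Mobp, Mal and Opalin were near 0. In the Cnksr3 nuclei Mbp and Mobp were high, Mal was still low, and Bcas1 was lower again; in oligodendrocyte-like nuclei Mal was at its highest. These levels, in UFIs per 10000 UFIs of the class, are a description of clusters and carry no test. Their intervals are exact 95% intervals for counting error, not for the spread between nuclei.

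**Figure D1:**
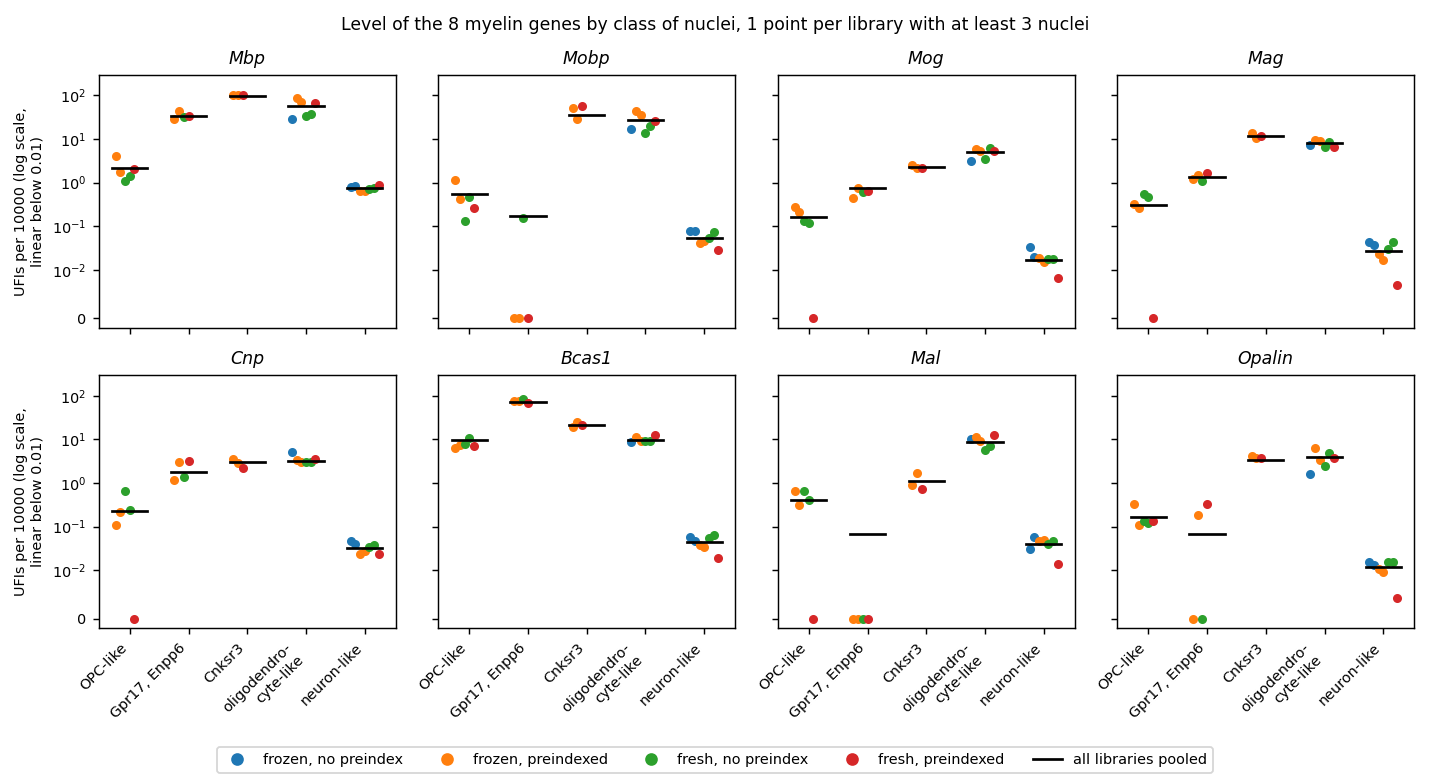
Level of each of the 8 genes, in UFIs per 10000 on a log scale that is linear below 0.01, in 5 classes of nuclei. Points are libraries with at least 3 nuclei of the class, coloured by group, and black lines are all libraries pooled. Bcas1 is highest in the Gpr17 and Enpp6 nuclei (73.0) and Mal in the oligodendrocyte-like nuclei (8.77), and Mbp is 98.9 in the Cnksr3 nuclei and 55.8 in all 65 oligodendrocyte-like nuclei, 28 of which, with few astrocyte transcripts, gave 94.3.

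Mbp was detected in 29 of 66 OPC-like nuclei, with a level of 2.20 (interval 1.87 to 2.57) and 1.07 to 3.99 over the 5 libraries with at least 3 such nuclei. Few nuclei carried this level: the median nucleus was at 0, 3 nuclei held 10 or more, and the highest held 48.1. In the Gpr17 and Enpp6 nuclei it stood at 34.1 (32.1 to 36.3), with 28.8, 44.9, 31.5 and 33.4 in the frozen preindexed libraries 1 and 2, the fresh library 2 without preindex and the fresh preindexed library. In the Cnksr3 nuclei it was 98.9 (95.8 to 102), and the 3 libraries with enough nuclei gave 103, 100 and 102. The order of these 3 classes was thus the same in every library that could be compared. In oligodendrocyte-like nuclei Mbp was 55.8 (54.2 to 57.5), and its library values ran from 28.2 to 85.2, which overlaps the range of the Gpr17 and Enpp6 nuclei. This class was made of 2 clusters, described further on, with lower and higher summed astrocyte transcripts. In the 28 nuclei of the lower one Mbp was 94.3. The 3 libraries with at least 3 of these nuclei, all preindexed, gave 106, 106 and 110, above the values of the Cnksr3 nuclei in the same libraries. Pooled over all libraries the order was the reverse, 94.3 against 98.9. In the fresh libraries 1 and 2 without preindex 1 and 2 nuclei of this kind gave 34.1 and 59.3, and single Cnksr3 nuclei there held 71.09 to 103.30.

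Mobp followed another course. Its 5 UFIs in the Gpr17 and Enpp6 nuclei gave 0.169 (0.0549 to 0.394), and it was at 0 in 3 of 4 libraries there. In the OPC-like nuclei it was 0.543 (0.388 to 0.739), with 1 nucleus at 10 or more. It then stood at 36.3 in the Cnksr3 nuclei and at 27.1 in the oligodendrocyte-like nuclei, whose library ranges, 29.0 to 58.0 and 14 to 43.5, overlap. For each Mobp UFI there were 202 Mbp UFIs in the Gpr17 and Enpp6 nuclei, 2.73 in the Cnksr3 nuclei and 2.06 in the oligodendrocyte-like nuclei.

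Bcas1 ran the opposite way. It was found in 58 of 66 OPC-like nuclei, at 9.54 (8.85 to 10.3), and in all 29 Gpr17 and Enpp6 nuclei, at 73.0 (70.0 to 76.2). Its library values in the latter were 74.7, 75.6, 82.7 and 69.8, in the library order given for Mbp, and no nucleus was below 22.6. It then stood at 21.7 in the Cnksr3 nuclei, with library values of 18.8 to 25.3, and at 9.83 in the oligodendrocyte-like nuclei, with 8.58 to 12.4. The OPC-like range, 6.25 to 10.8, overlaps that of all 65 oligodendrocyte-like nuclei, and the other classes do not overlap each other. Bcas1 was 14.2 in the 28 oligodendrocyte-like nuclei with few astrocyte transcripts. It was 13.7, 12 and 20.3 in the frozen preindexed libraries 1 and 2 and the fresh preindexed library, the last with 4 such nuclei. These values lie above the OPC-like range, and that of the fresh preindexed library lies within the Cnksr3 range. Bcas1 made up 65.6% of the UFIs of the 8 genes in the Gpr17 and Enpp6 nuclei and 8.07% in the oligodendrocyte-like nuclei.

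Mal and Opalin were, with Mobp, the members that were near 0 in the Gpr17 and Enpp6 nuclei, each with 2 UFIs there (0.0676, interval 0.00819 to 0.244). The 3 genes part in the next class. Opalin stood at 3.41 in the Cnksr3 nuclei and at 3.88 in the oligodendrocyte-like nuclei, and the library ranges overlap. Mal stood at 1.14 in the Cnksr3 nuclei (0.735 to 1.67 over 3 libraries) and at 8.77 in the oligodendrocyte-like nuclei (5.75 to 12.4 over 6 libraries), with no overlap. For each Mbp UFI there were 0.0115 Mal UFIs in the former and 0.157 in the latter.

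The bases before the start of these 3 genes are printed because the genes share low levels in the Gpr17 and Enpp6 nuclei. They come from RefSeq on GRCm38.p6, run 5′ to 3′ on the strand of the gene and end before the annotated gene: Mobp at chr9:120149492-120149706 on the plus strand, Mal at chr2:127656696-127656945 and Opalin at chr19:41077114-41077363 on the minus strand. Capitals mark ACAAAG on either strand, the core that SOX factors such as Sox10 bind; CTGGNAC, the core known for Myrf, was marked too and has no match in these stretches.
Mobp: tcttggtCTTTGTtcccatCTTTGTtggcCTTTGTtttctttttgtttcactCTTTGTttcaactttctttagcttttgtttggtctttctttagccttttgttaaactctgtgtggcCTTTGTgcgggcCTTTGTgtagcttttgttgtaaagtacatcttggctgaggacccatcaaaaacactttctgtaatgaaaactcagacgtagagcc
Mal: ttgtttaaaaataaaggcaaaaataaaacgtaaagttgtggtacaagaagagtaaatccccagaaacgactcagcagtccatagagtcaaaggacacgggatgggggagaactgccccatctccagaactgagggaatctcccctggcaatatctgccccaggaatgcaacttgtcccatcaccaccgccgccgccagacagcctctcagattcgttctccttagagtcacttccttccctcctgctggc
Opalin: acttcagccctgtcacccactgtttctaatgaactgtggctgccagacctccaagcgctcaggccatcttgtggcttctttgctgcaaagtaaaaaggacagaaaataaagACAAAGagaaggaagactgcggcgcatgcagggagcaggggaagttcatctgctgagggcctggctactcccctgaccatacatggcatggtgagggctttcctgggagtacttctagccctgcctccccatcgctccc
In the 250 bases before the start, ACAAAG or its reverse complement occurred 6 times for Mobp, 1 time for Opalin and not at all for Mal. It occurred in 16.5% of the 27025 promoters of that length in the table, and Mobp was the only one of them with 6 or more. CTGGNAC occurred in 16% of all promoters, and among the 6 members examined, which leave out Mbp and Bcas1, in those of Mag, Cnp and Mog. CANNTG, the E-box that Olig2 and related factors bind, occurred in 66% of promoters, and it had no match for Mobp and Mal and 1 for Opalin. A match is a string of letters in a window, and no binding was measured.

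Mag, Mog and Cnp stood at low levels in the Gpr17 and Enpp6 nuclei and at higher ones after. Mag was 0.312, 1.32, 11.9 and 8.07 in the OPC-like, the Gpr17 and Enpp6, the Cnksr3 and the oligodendrocyte-like nuclei. Mog was 0.163, 0.744, 2.27 and 5.10 in the same order, and its library values in the Cnksr3 nuclei (2.15 to 2.49) all lay under those in the oligodendrocyte-like nuclei (3.16 to 6.32). Cnp was 0.231, 1.79, 3.11 and 3.23, and its values in the last 3 classes overlap. Mag was found in 20 of 29 Gpr17 and Enpp6 nuclei, Cnp in 24 and Mog in 10.

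**Figure D2:**
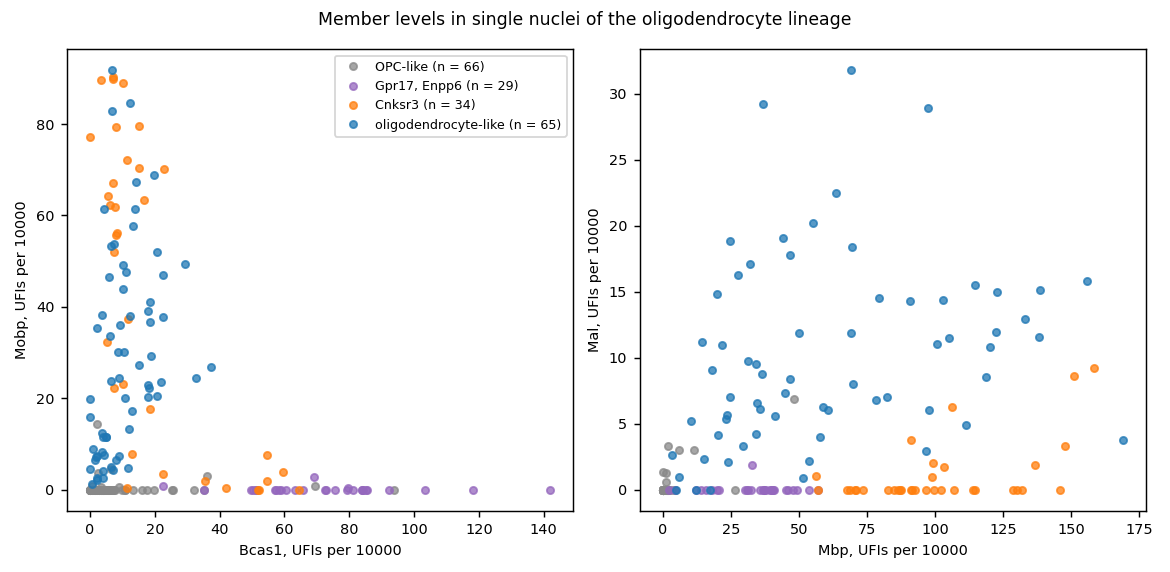
Levels in single nuclei, in UFIs per 10000, with Mobp against Bcas1 on the left and Mal against Mbp on the right; each point is 1 nucleus, coloured by class. Nuclei with Bcas1 over 25 lie mostly along the Bcas1 axis with little Mobp, and most Cnksr3 nuclei lie along the Mbp axis with Mal at 0.

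The Cnksr3 nuclei were not uniform. Mobp was under 10 in 11 of the 34 and at 10 or more in 23, and nuclei of both kinds came from 5 libraries each. The 11 nuclei, chosen here by Mobp, had Mbp at 87.6, Bcas1 at 38.2, Opalin at 0.236, Mog at 0.177 and no Mal UFI. The other 23 had Mbp at 107, Bcas1 at 9.85, Opalin at 5.69, Mog at 3.78 and Mal at 1.95. Enpp6 was 13.4 and 1.82 in the respective nuclei, and Tcf7l2, a transcription factor of the premyelinating stage, was 67.6 and 16.8.

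Other genes of myelination, from a list of 55, also stood at different levels in these classes. Of the premyelinating genes, Gpr17 was 14.4 in the Gpr17 and Enpp6 nuclei and 1.93 in the Cnksr3 nuclei, Tns3 was 72.8 and 42.6, and Rras2 was 0.575 and 13.1. Among the transcription factors Myrf, which drives myelin genes, was 0.597, 3.35, 4.77 and 2.95 in the 4 classes in the order above, and Sox10 was 1.13, 2.20, 1.93 and 0.953. Of the enzymes of myelin lipids, Fa2h was 0.964, 4.09, 4.77 and 7.07 and Aspa was 0.163, 0.0676, 0.543 and 2.92. Nfasc, an adhesion molecule of the paranode, was 108 in the Gpr17 and Enpp6 nuclei, 153 in the Cnksr3 nuclei and 31.8 in the oligodendrocyte-like nuclei.

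The 65 oligodendrocyte-like nuclei were of 2 clusters, called here by their summed astrocyte markers. The 28 with few had 1.33 per 10000, with 2 of 8, Aqp4 and Slc39a12, at 0. The 37 with many had 71.6, with none at 0. Single nuclei of the 2 clusters overlapped in these markers. The median nucleus held 0.292 in the 28 and 7.96 in the 37, with ranges of 0 to 13.5 and 0 to 219. All 8 members were higher in the 28. Mbp was 94.3 and 33.8, Mobp 50.7 and 13.6, Mag 12.5 and 5.55, Mal 12.5 and 6.60, and Opalin 6.70 and 2.26. Within the 37, 17 nuclei with at least 20 astrocyte-marker UFIs per 10000 had Mbp at 19.1, and the other 20 had it at 48.6, which is still under the 28. The 13 oligodendrocyte markers, none of them members, summed to 165 in the 28 and 112 in the 37, with St18 at 67.6 and 29.7. Prr5l (16.7 and 31.6), Hapln2 (0 and 0.662) and Cntn2 (4.63 and 5) went the other way. Ermn was 1.05 in both, and the rest were higher in the 28. Of the 28 nuclei, 12, 8 and 4 lay in the frozen preindexed libraries 1 and 2 and the fresh preindexed library. In each of the 6 libraries that held both kinds, Mbp was higher in the nuclei with few astrocyte transcripts, by as little as 34.1 against 33.3 in the fresh library 1 without preindex, where 1 nucleus of that kind was seen.

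Per kilobase of gene span, which allows genes to be compared where introns are counted, the order of the members differed between stages. In the 28 oligodendrocyte-like nuclei with few astrocyte transcripts Mobp led with 1.59 UFIs per 10000 and kilobase, then came Mbp (0.854), Mag (0.795), Mog (0.645), Mal (0.535), Opalin (0.435), Cnp (0.267) and Bcas1 (0.175). In the Gpr17 and Enpp6 nuclei Bcas1 led with 0.903, then came Mbp (0.309), Cnp (0.106), Mag (0.0840), Mog (0.0588), Mobp (0.00532), Opalin (0.00439) and Mal (0.00288). By span, Bcas1 thus stood last in the one and first in the other. Per kilobase of exon the order in the 28 nuclei was another. Mbp led with 11.1, then came Mobp (7.4), Mog (4.79), Mal (4.52), Bcas1 (3.76), Mag (3.07), Opalin (2.27) and Cnp (1.23). The place of Bcas1 thus depends on the length used.

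Over 43 clusters, the member closest to the mean profile of the 8 was Mag (Pearson r = 0.986) and the farthest was Mal (0.874). Each member is itself part of that mean, so the values of members cannot be set beside those of other genes. Among 6372 other genes, those most like the mean profile included Cldn11, the claudin of the myelin sheath (0.962), Fa2h, which makes hydroxylated myelin lipids (0.958), Ninj2 (0.954), 1700047M11Rik (0.948), Gm10863 (0.945), Gm16168 (0.941) and Sec14l5 (0.938). The clusters share libraries, so these correlations are a description.

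Outside the lineage cluster the 8 genes behaved unequally. The lineage cluster held 87.7% of the Bcas1 UFIs, 83.3% of Mobp, 78.5% of Mag, 76.5% of Opalin and 74.3% of Mog. It held 56.7% of Mal, 54.5% of Cnp and 49.9% of Mbp. The neuron-like nuclei, 88.6% of all nuclei, held 47.3% of the Mbp UFIs, 40.4% of Cnp and 10.7% to 26.7% of the other members. Kidney tubule-like nuclei held 13.7% of the Mal UFIs and 0% to 0.564% of the others.

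**Figure D3:**
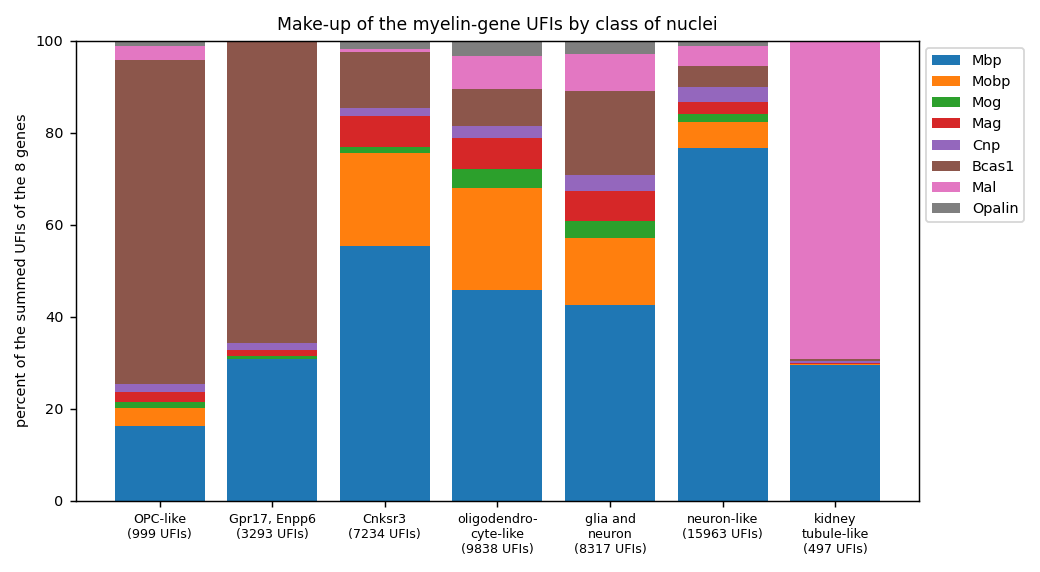
Percent of the summed UFIs of the 8 genes that each gene contributes, in 7 classes of nuclei with the number of UFIs given below each bar. Mbp makes up 76.7% in neuron-like nuclei and 45.8% in oligodendrocyte-like nuclei, Bcas1 70.4% in OPC-like nuclei, and Mal 69.2% in kidney tubule-like nuclei.

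In neuron-like nuclei Mbp was at 0.743 UFIs per 10000 (interval 0.730 to 0.756). By library it was 0.781 and 0.829 in frozen brain without preindex, 0.641 and 0.637 in frozen preindexed, 0.729 and 0.752 in fresh without preindex and 0.864 in fresh preindexed. The fresh preindexed library was the highest and the frozen preindexed libraries were the lowest. Mobp, the next member, was at 0.0539, and the other 6 lay between 0.0116 for Opalin and 0.0442 for Bcas1. Mbp was found in 49.3% of neuron-like nuclei, or 17.5% when each nucleus was thinned to 3000 UFIs, and Mobp in 4.59%, or 1.07% when thinned. Neuron-like nuclei held a median of 13118 UFIs and kidney tubule-like nuclei, in which Mbp was found in 18.0%, a median of 8761.

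Free RNA from broken cells can enter any droplet. There were 3.29 Mbp UFIs for each UFI of the other 7 members in neuron-like nuclei (2.49 to 8.22 over the 7 libraries), against 0.794 in the lineage cluster (0.535 to 1) and 0.846 in the oligodendrocyte-like nuclei. The ranges over libraries do not overlap. In neuron-like nuclei with fewer than 3 oligodendrocyte-marker UFIs the ratio was 7.09 (4.09 to 13.0), and in those with 3 or more it was 2.17. The part of free RNA in these levels was not tested.

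Kidney tubule-like nuclei give another level to set beside the neurons. They lay in the 2 frozen preindexed libraries, where Mbp was 0.313 and 0.340 in them and 0.641 and 0.637 in the neuron-like nuclei. Mobp was 0.00473 and 0 in them and 0.0410 and 0.0467 in the neuron-like nuclei. After thinning to 3000 UFIs, Mbp was found in 8.90% of the 483 kidney nuclei, and Mobp was found in 1 of them before thinning. Mog and Opalin had no UFI there, with an upper 95% limit of 0.00826 UFIs per 10000 each. Mal was the exception, with 344 UFIs at 0.582 and 0.939. It was 1.63 in 97 nuclei with more markers of distal segments (Umod, Slc12a1, Slc12a3) than of proximal ones and 0.485 in 377 with more proximal ones. In the same 97 and 377 nuclei Mbp was 0.645 and 0.214. The 20 liver-like nuclei held none of the 8, with an upper 95% limit of 0.35 UFIs per 10000.

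None of the other 7 members was seen in 8296 neuron-like nuclei (83.6%). Mbp was found in 3876 of these (46.7%), at a level of 0.675. By library it was 0.618 and 0.711 in frozen brain without preindex, 0.564 and 0.576 in frozen preindexed, 0.642 and 0.715 in fresh without preindex and 0.825 in fresh preindexed. At the other end, 105 nuclei (1.06%) held 5 or more UFIs of the other 7 and with them 47.3% of all such UFIs in neurons. Mbp was 4.68 in these 105, and the 13 oligodendrocyte markers were 17.2, against 1.36 in nuclei with none of the 7. In nuclei with 1 UFI of the 7, Mbp was 0.674, beside 0.675 without any.

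Among 24 neuronal clusters of at least 30 nuclei Mbp ran from 0.268 to 1.68 with a median of 0.688. The highest was the cluster led by Dsp and C1ql2, known markers of dentate granule cells, with 420 nuclei and library values of 1.50 to 1.92. Cerebellar granule nuclei, led by Fat2 and Cbln3, followed at 1.41 (0.860 to 1.99). The lowest were the cluster led by Gm45260 (0.268), that led by Oprk1 and Nr4a2 (0.290) and the cluster led by Vip and Adarb2 (0.326, with library values of 0.0813 to 0.474). The Vip and Adarb2 range lies wholly under that of the Dsp and C1ql2 cluster. Without nuclei that held any of the other 7 members, Mbp was 1.41 in the Dsp and C1ql2 cluster and 0.237 in the Vip and Adarb2 cluster. It was 0.904 rather than 1.41 in the cerebellar granule nuclei, and in the cluster led by Gm38048 and Arhgef33 it was 0.14 rather than 0.577, the lowest of the 24 by this measure. The other 7 summed to between 0.0912 and 0.776, and the cluster led by Gm19410 had the lowest sum with Mbp at 1.21.

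**Figure D4:**
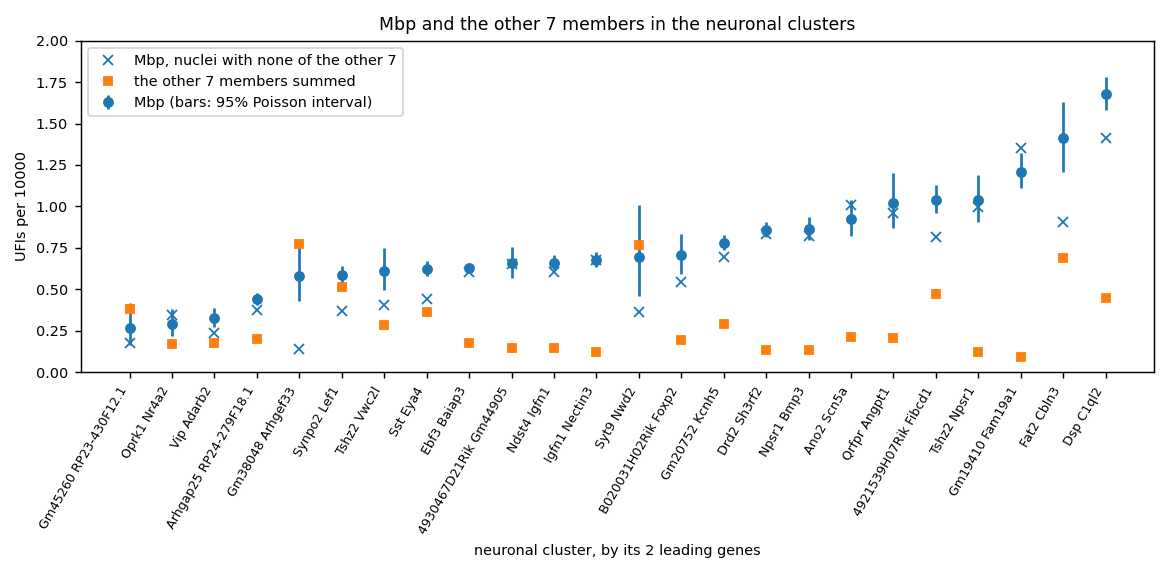
Mbp (circles, with 95% Poisson intervals), Mbp in nuclei without the other 7 members (crosses) and the sum of the other 7 (squares), in UFIs per 10000, in 24 neuronal clusters of at least 30 nuclei ordered by Mbp and named by their 2 leading genes. Mbp runs from 0.268 to 1.68, and the other 7 summed stay at 0.776 or less.

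Other glia and vessel cells held less of each member than the lineage cluster. In 60 astrocyte-like nuclei Mbp was 0.426 (0.278 to 0.624) and Cnp was 0.147 (0.0674 to 0.280). The Mbp UFIs lay in 9 of these nuclei, with 0 to 2.66 over 5 libraries and a library median of 0.174. Mog and Mag had no UFI there, with an upper 95% limit of 0.0604 each. In 36 nuclei of a vascular cluster led by Rgs5 and Flt1, in which 6 of 6 endothelial and 5 of 5 pericyte markers exceeded their mean over the remaining clusters by more than 2-fold, Mbp was 1.01 (0.700 to 1.41) and Mal was 0.684 (0.434 to 1.03). Both lay above the neuron-like nuclei, where Mbp was 0.743 and Mal 0.0408. The 376 barcodes with glial and neuronal markers held 17.8% of the UFIs of the 8 genes at an Mbp level of 5.30. They had 0.740 Mbp UFIs for each UFI of the other 7, beside 0.794 in the lineage cluster. These ratios are not of separate sets. The 177 lineage nuclei at or over the neuron-marker limit entered the second clustering that gave these barcodes. Those 177 held 7817 UFIs of the 8 genes, and the 376 held 8317.

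The next comparisons asked whether the members differed by storage or by primer. Primer went together with tissue content in these libraries, as cerebellar granule nuclei were seen only without preindex. In the lineage cluster, summed granule neuron markers were 0.691 to 2.42 UFIs per 10000 without preindex and 0 to 0.0561 with it. The part of tissue content in the differences by primer was not tested. UFIs were summed per library and fitted over all genes with edgeR, with storage and primer as terms, and the error given is the standard error, computed as the log2 fold change divided by the square root of the F statistic. Summed over the 8 genes, all nuclei held 2.14 and 2.12 UFIs per 10000 in frozen brain without preindex, 3.38 and 3.55 in frozen preindexed, 2.35 and 2.30 in fresh without preindex and 1.85 in fresh preindexed. In such sums, fewer nuclei of a type and less RNA per nucleus cannot be told apart. The 2 frozen preindexed libraries were the highest and the fresh preindexed library the lowest.

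Over all nuclei, none of the 8 members differed by storage, against 0.207% of 19299 genes called. At an unadjusted p of 0.05, 1 member and 2901 of all genes passed. Frozen brain was 0.34 ± 0.13 log2 units above fresh for Cnp, the member with the lowest p (adjusted p = 0.3), and 0.70 ± 0.38 for Mal. The direction rested on the fresh preindexed library: among the 4 libraries without preindex, chosen after the data had been seen, 7 of the 8 differences were below 0, Mal at -0.00 and Opalin furthest with -0.75 ± 0.19 (adjusted p = 0.0519), and no member was called, against 3.82% of all genes.

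By primer, 1 of 8 members was called over all nuclei, where 15.8% of all genes were, 7.88% as higher with preindex. Mbp was 1.19 and 1.18 UFIs per 10000 in frozen brain without preindex, 1.30 and 1.24 in fresh without preindex, 1.71 and 1.94 in frozen preindexed and 1.24 in fresh preindexed. The preindexed libraries were 0.44 ± 0.12 log2 units higher (adjusted p = 0.0403), although the fresh preindexed library lay within the range of those without preindex. The call was lost without any 1 of the frozen libraries 1 and 2 without preindex, the frozen preindexed libraries 1 and 2 and the fresh library 2 without preindex (adjusted p of 0.123, 0.134, 0.101, 0.105 and 0.0663).

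Over all nuclei the members' primer difference depended on storage. An interaction of storage and primer was called for 7 of 8 members, all but Cnp, against 16.4% of genes, and it rests on the 1 fresh preindexed library. The difference of the 2 storage differences was 2.42 ± 0.28 log2 units for Opalin, 1.94 ± 0.16 for Mag and 0.56 ± 0.10 for Mbp. Within the lineage cluster the same term was called for 0 of 8 members by edgeR (adjusted p of 0.261 to 0.886), where 0.106% of genes were called, and 4 members passed at an unadjusted p of 0.05. In neuron-like nuclei it was called for 3 of 8, where 6.85% of genes were. Among the 4 frozen libraries alone, taken after the data had been seen, 6 of 8 members were higher with preindex, where 33.0% of genes were called. Mobp was 0.252 and 0.210 UFIs per 10000 without preindex and 0.517 and 0.511 with it, a difference of 1.22 ± 0.08 log2 units (adjusted p = 1.25e-07). Opalin differed by 1.14 ± 0.20, Bcas1 by 0.81 ± 0.09, Mal by 0.80 ± 0.12, Mbp by 0.66 ± 0.06 and Mag by 0.62 ± 0.11. Kidney tubule-like nuclei, seen only in the frozen preindexed libraries, held 13.7% of the Mal UFIs. Over the 7 libraries Mal differed by 0.12 with preindex, and by -0.07 without kidney and liver nuclei. The part of these nuclei in the Mal differences over all nuclei was not tested.

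**Figure D5:**
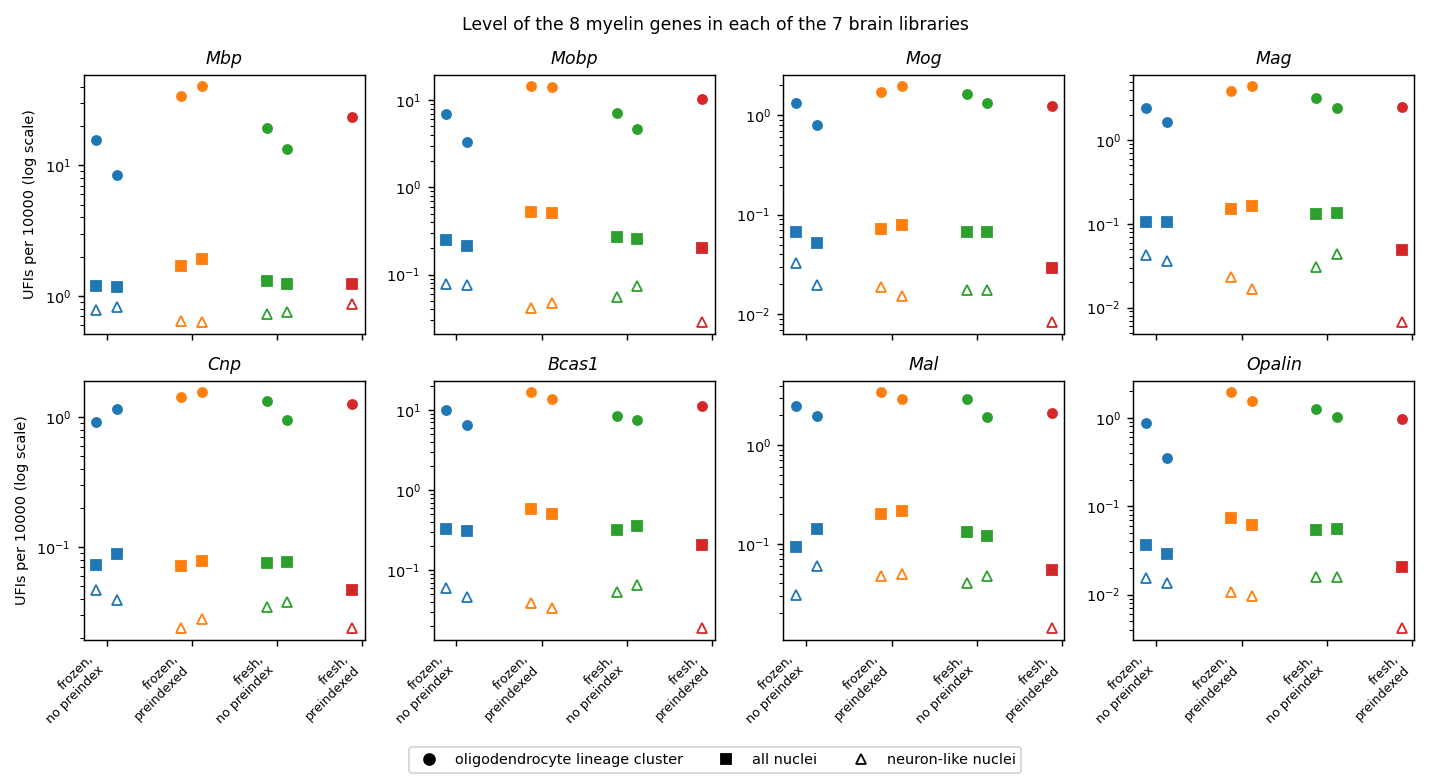
Level of each of the 8 genes, in UFIs per 10000 on a log scale, in each of the 7 libraries by group, for the lineage cluster (circles), all nuclei (squares) and neuron-like nuclei (open triangles). Over all nuclei the 2 frozen preindexed libraries are the highest for Mbp (1.71 and 1.94) and Mobp (0.517 and 0.511); in neuron-like nuclei the fresh preindexed library is the lowest for Mobp, Mog, Mag, Bcas1, Mal and Opalin and the highest for Mbp (0.864).

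Within the lineage cluster no member was called by storage, nor was any of the 9395 genes tested (0%). At an unadjusted p of 0.05, 0 of 8 members and 341 of all genes passed. By primer, 2 of 8 members were higher in the preindexed libraries, against 1.55% of genes called and 0.713% called as higher. Mbp was 15.7 and 8.46 in frozen brain without preindex, 19.2 and 13.3 in fresh without preindex, 33.8 and 40.2 in frozen preindexed and 23.5 in fresh preindexed, a difference of 1.30 ± 0.28 log2 units (adjusted p = 0.0376). Mobp was 6.89, 3.28, 7.07, 4.65, 14.4, 14 and 10.4 in the same order, a difference of 1.33 ± 0.26 (adjusted p = 0.0266). For both genes every preindexed library lay above every library without preindex. The lineage cluster was made up differently in these libraries. Cnksr3 nuclei, a class with high Mbp and Mobp, numbered 0, 0, 2 and 2 without preindex and 11, 13 and 6 with it. The oligodendrocyte-like cluster with few astrocyte transcripts held 0, 1, 1 and 2 nuclei without preindex and 12, 8 and 4 with it. The part of this makeup in the result was not tested.

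The other 6 members also had positive differences in the lineage cluster, from 0.33 ± 0.23 for Mal to 0.95 ± 0.36 for Opalin, and none was called; Bcas1 came closest at 0.81 ± 0.20 (adjusted p = 0.0622). Summed neuron markers in the lineage cluster were 26.6 to 36.3 UFIs per 10000 without preindex and 18.0 to 26.0 with it, none of 9 markers at 0, and the 13 oligodendrocyte markers were 32.3 to 50.3 and 51.3 to 61.5. With lineage nuclei under the neuron-marker limit only, a choice made after the data had been seen, Mbp differed by 1.15 (adjusted p = 0.0953) and Mobp by 1.35 (adjusted p = 0.0552). No member was called there, against 4 of 6110 genes. The counts with 1 library left out ran from 0 to 4: 0 without the frozen libraries 1 or 2 without preindex, the frozen preindexed library 1 or the fresh library 2 without preindex, 1 without the frozen preindexed library 2, and 4 without the fresh preindexed library. Among the frozen libraries alone, 4 members were higher with preindex, against 3.93% of genes: Opalin (1.78 ± 0.36, adjusted p = 0.0278), Mbp (1.67 ± 0.32, adjusted p = 0.0202), Mobp (1.56 ± 0.33, adjusted p = 0.0316) and Mag (1.11 ± 0.27, adjusted p = 0.043). Among the libraries without preindex alone, none was called by storage, against 0.162% of genes.

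In neuron-like nuclei the members went the other way. By storage none of 8 was called, against 0.521% of 18245 genes. At an unadjusted p of 0.05, 3 members and 2196 of all genes passed. By primer 4 of 8 were called, all lower in the preindexed libraries, where 19.8% of genes were called and 9.18% in that direction. Mobp was 0.0771 and 0.0768 in frozen brain without preindex, 0.0549 and 0.0737 in fresh without preindex, 0.0410 and 0.0467 in frozen preindexed and 0.0287 in fresh preindexed (-0.82 ± 0.14, adjusted p = 0.00327). Mag was 0.0430 and 0.0361, 0.0303 and 0.0436, 0.0234 and 0.0165, and 0.00677 in the same order (-1.37 ± 0.29, adjusted p = 0.00921). For both genes every preindexed library lay below every library without preindex. Bcas1 differed by -0.86 ± 0.22 (adjusted p = 0.0212) and Cnp by -0.51 ± 0.15 (adjusted p = 0.0374). Mbp did not pass, with 0.05 ± 0.10 (adjusted p = 0.763).

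The 13 oligodendrocyte markers were lower in the same neuron-like libraries, 8 of them called lower and none higher, and their sum was 1.91 to 2.31 UFIs per 10000 without preindex and 1.28 to 1.52 with it. Their part in the result was not tested. Neuron-like nuclei that held 3 or more UFIs of these markers had a median of 20409 UFIs, and the others 11219. Without the former, 1 of the 7 members tested, Bcas1, was called by edgeR (-1.0, adjusted p = 0.0233), against 1490 of 14856 genes. Mobp then differed by -0.85 (adjusted p = 0.166), Mag by -1.77 (adjusted p = 0.0605) and Cnp by -0.52 (adjusted p = 0.159). Cnp lost its call when any 1 library was left out (adjusted p of 0.0591 to 0.108), and Bcas1 when the fresh preindexed library was (-0.40, adjusted p = 0.173). Among the frozen libraries alone, 3 members were lower with preindex, against 21.3% of genes: Mag (-0.86 ± 0.25, adjusted p = 0.0308), Mobp (-0.68 ± 0.16, adjusted p = 0.0105) and Mbp (-0.22 ± 0.05, adjusted p = 0.0105). Among the libraries without preindex alone none was called by storage, against 4.07% of genes.

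Of the 55 other genes of myelination, none was called by storage with edgeR in all nuclei, the lineage cluster or neuron-like nuclei. At an unadjusted p of 0.05, 8 of 52, 1 of 48 and 11 of 48 tested passed. Among all genes, 2901 of 19299, 341 of 9395 and 2196 of 18245 passed at that p. By primer in the lineage cluster, 8 of 48 tested were higher and none lower, where 1.55% of all genes were called, with a median difference of 0.54 log2 units beside -0.019 over all genes tested. Among the 8 were Lpar1, a lysophospholipid receptor (1.41 ± 0.29, adjusted p = 0.0308), Nfasc (1.32 ± 0.30, adjusted p = 0.0456) and Sirt2, a deacetylase of oligodendrocytes (1.26 ± 0.23, adjusted p = 0.0228). In neuron-like nuclei 4 of 48 were higher and 14 lower, where 19.8% of all genes were called, with a median of -0.30 beside -0.042. Olig1, a transcription factor of the lineage, was lower by -1.21 ± 0.25, the connexin Gjc3 by -1.0 ± 0.25 and Aspa by -0.96 ± 0.28, while Lpar1 (0.83 ± 0.13), the axonal signal Nrg1 (0.49 ± 0.04) and Lingo1 (0.16 ± 0.04) were higher. Over all nuclei, where 15.8% of all genes were called, 3 of 52 were higher, Gjb1, Lpar1 and Nrg1, and 6 lower, with Hapln2 (-1.44 ± 0.26), Olig1 (-1.11 ± 0.17) and Cntn2 (-0.76 ± 0.07) lowest. Kidney tubule-like and liver-like nuclei, seen only in preindexed libraries, are among all nuclei, and their part in these differences was not tested.

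The lineage cluster made up 3.29% and 4.38% of nuclei in frozen brain without preindex, 3.70% and 3.40% in frozen preindexed, 3.40% and 4.08% in fresh without preindex and 2.06% in fresh preindexed. Frozen brain averaged 3.69% ± 0.488 (SD, n = 4) against 3.18% ± 1.02 (SD, n = 3) for fresh brain, with p = 0.457 in the two-sided exact permutation test. It was 3.05% ± 0.870 (SD, n = 3) with preindex and 3.78% ± 0.526 (SD, n = 4) without, and the same exact test gave p = 0.343. Over 35 assignments this two-sided test could not give a p under 0.0571, so no difference in share could have passed the threshold of 0.05. Adjusted over these 2 comparisons, both p-values are 0.457. The 8 genes summed were 37.4, 21.6, 91.3, 96.1, 46.3, 31.3 and 54.8 times as high in the lineage cluster as in neuron-like nuclei of the same library, in the order frozen without preindex, frozen preindexed, fresh without preindex and fresh preindexed, with a mean of 54.1 ± 29.1 (SD, n = 7).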

How the data were processed

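The 7 mouse brain libraries of the series were used; the libraries of cultured cells hold no brain nuclei and were not used here. The authors deposited tables of whole-number counts of UFIs per gene and nucleus. Per the labels' processing notes and the methods, reads were trimmed with cutadapt, barcodes handled with UMI-tools, reads aligned with STAR to mm10 (GRCm38), counted per gene with featureCounts and analysed with Scanpy; GRCh38 is also named. The methods describe UFI quantification as strand-specific; the annotation release and the counter's own strand setting are not given in the sources used here. Gene positions were taken from the GENCODE annotation of GRCm38. Promoters of 6 of the 8 members were examined in the RefSeq promoter table, which has no entry for Bcas1, and Mbp was left out.

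The 8 members and all lists were chosen with earlier results of these data known. Nuclei were clustered with scanpy 1.11.5 and leidenalg 0.10.2 (2000 variable genes without the members, 40 principal components, 10 neighbours, resolution 0.4). Clusters with marker sets of cells other than neurons, kidney or liver were clustered again (1000 genes, 20 components), separately under and at or over the neuron-marker limit. No barcode was removed and no doublet caller was run. Because oligodendrocytes and OPCs shared a cluster, the lineage cluster of 362 nuclei stands for the oligodendrocyte-like nuclei in all tests between libraries; 80 nuclei in the clusters of the second step lay between 5 and 15 neuron-marker UFIs per 10000, near the limit of 10. Levels are UFIs per 10000 UFIs of a class or library. UFIs summed per library were tested with edgeR 4.0.16 in R 4.3.3 (quasi-likelihood, TMM scaling, filterByExpr, Benjamini-Hochberg over all genes tested, threshold 0.05) with storage and primer as terms; shares of nuclei were compared with an exact permutation test over 35 assignments in Python 3.11.15 with scipy 1.17.1. The fits were tested on simulated data. Alternatives were DESeq2 1.42.0, other scaling, no filter on low counts, other clustering, a replicate block and each library left out. Depth was 8605214 to 42439731 UFIs per library.

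Named were all members, up to 3 genes of the myelination list per direction and comparison with the largest called change, and the 8 genes whose profile was most like the mean of the members (log2 of the level + 0.1, genes with a mean of at least 0.2); 1 of these 8 is not reported here.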

Additional observations from a re-analysis of the deposited data

Results flagged for a closer look

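Over all nuclei the difference between frozen and fresh brain was larger with preindex than without it for 7 members, by an interaction term over all genes (edgeR, Benjamini-Hochberg). On the log2 scale the difference of differences was 0.56 for Mbp (adjusted p = 0.00126), 1.44 for Mobp (3.23e-06), 1.52 for Mog (0.000578), 1.94 for Mag (1.18e-06), 1.39 for Bcas1 (4.17e-06), 1.89 for Mal (1.42e-05) and 2.42 for Opalin (3.11e-05). Within the lineage cluster the term was called for none of the 8 members by edgeR (adjusted p of 0.261 to 0.886), and 4 passed at an unadjusted p of 0.05. The lineage cluster made up 2.06% of nuclei in the fresh preindexed library, the only one of its group, and 3.40% and 3.70% in the frozen preindexed libraries, and the part of this share in the result was not tested. Nor was the part of kidney tubule-like nuclei, seen only in the frozen preindexed libraries, in the Mal value.

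In neuron-like nuclei the same term, tested over all genes with edgeR, was negative for Mbp (-0.60, adjusted p = 0.000306) and positive for Bcas1 (1.09, adjusted p = 0.0384) and Mal (1.64, adjusted p = 0.0125). Mbp was highest and Bcas1 and Mal were lowest in the fresh preindexed library.

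Of 50 groups of 4 libraries in which a member's level was examined for a library far from the others, 3 had one, and chance gives about 1 in 20. Mog over all nuclei was 0.0516 UFIs per 10000 in the frozen library 2 without preindex and 0.0674 to 0.0676 in the other libraries without preindex. Mobp in neuron-like nuclei was 0.0549 in the fresh library 1 without preindex and 0.0737 to 0.0771 in the others. Mog in neuron-like nuclei was 0.0329 in the frozen library 1 without preindex and 0.0173 to 0.0196 in the others.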

How the results depend on the processing

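The number of members called by primer over all nuclei, 1 as reported, was 3 without a filter on low counts, 2 with DESeq2, 6 in frozen libraries only and 0 to 6 with 1 library left out. All genes called were 4787 of 34496 without the filter and 3059 of 19299 with DESeq2, against 3041 of 19299 as reported. In the lineage cluster the number of members was 2, and it was 4 without a filter, 1 with 20 principal components, 0 with the oligodendrocyte-like nuclei of the second clustering only (Mbp 1.32, adjusted p = 0.087, and Mobp 1.09, adjusted p = 0.181, by edgeR), 0 under the neuron-marker limit, 4 in frozen libraries only and 0 to 4 with 1 library left out. All genes called there were 146 of 9395 as reported, 418 of 21450 without a filter and 83 of 9002 with 20 components. They were 2 of 4117 with the second clustering and 4 of 6110 under the limit. In neuron-like nuclei the number of members was 4, and it was 1 without nuclei with 3 or more oligodendrocyte-marker UFIs, 3 in frozen libraries only, all lower (Mbp, Mobp and Mag), 6 with the members kept among the variable genes, 6 with 20 principal components, 5 with a Leiden resolution of 1.2, and 3 to 5 with 1 library left out, where Mobp and Mag were called each time. All genes called there were 3606 of 18245 as reported and 1490 of 14856 without the marker-rich nuclei. They were 3598 of 18255 with the members kept, 3615 of 18234 with 20 components and 3710 of 18237 at resolution 1.2. By storage 0 members became 4 over all nuclei and 1 in neuron-like nuclei without a filter, and the number was 0 to 1 over all nuclei with 1 library left out. Without a filter, storage called 1937 of 34496 genes over all nuclei, against 40 of 19299 as reported. In neuron-like nuclei it called 853 of 34007, against 95 of 18245. The interaction was called for 7 members whichever of the 6 libraries outside fresh preindexed brain was left out. The cause of these shifts was not tested. Choices of frozen libraries, of libraries without preindex, of the second clustering and of the neuron-marker limit were made after the data had been seen.

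Replicate numbers did not pair the libraries: deviations of same-numbered libraries correlated between -0.04 and 0.04, and with the replicate block 0 members were called by primer over all nuclei, 0 in the lineage cluster and 3 in neuron-like nuclei. All genes called with the block were 1731 of 19299, 33 of 9395 and 2711 of 18245 in the same order.

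The difference in share by primer was 0.0729 percentage points with the nuclei of the second clustering and 0.843 under the neuron-marker limit, against -0.730, and -1.05 to -0.235 with 1 library left out; by storage it ran from -0.0485, without the fresh preindexed library, to 0.958. The mean ratio of the summed members was 122 with the nuclei of the second clustering and 94.5 under the limit, against 54.1.

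Differences of members that changed sign, none of them called as reported, were these, on the log2 scale. With the other factor left out, Mag by primer over all nuclei was 0.08, and by storage Mog was 0.14 and Opalin 0.26 in the lineage cluster and Bcas1 -0.02 in neuron-like nuclei. By storage in the lineage cluster Mbp was -0.01 without a filter and -0.01 with the members kept among the variable genes, and Mog was 0.02 with 20 components. Mal by primer over all nuclei was -0.07 without kidney and liver nuclei. By storage in neuron-like nuclei Cnp was -0.11 and Bcas1 -0.10 without nuclei rich in oligodendrocyte markers. With the second clustering, storage gave Mbp -0.06 and Bcas1 -0.18. Under the neuron-marker limit, storage gave Mbp -0.20, Mobp -0.24 and Mag -0.27, and primer gave Cnp -0.04 and Mal -0.20. In frozen libraries only, primer gave Mog 0.43 and Mag 0.62 over all nuclei, and Mbp -0.22 and Mal 0.14 in neuron-like nuclei. In libraries without preindex only, storage gave over all nuclei Mbp -0.05, Mobp -0.15, Mog -0.17, Mag -0.29, Bcas1 -0.05, Mal -0.00 and Opalin -0.75, in the lineage cluster Mbp -0.37, Mobp -0.16, Mag -0.44, Cnp -0.03 and Mal -0.07, and in neuron-like nuclei Mbp 0.17, Bcas1 -0.17 and Opalin -0.11.

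With 1 library left out, storage over all nuclei ran from -0.05 to 0.25 for Mbp, -0.16 to 0.69 for Mobp, -0.17 to 0.73 for Mog, -0.29 to 0.74 for Mag, -0.05 to 0.71 for Bcas1 and -0.75 to 0.68 for Opalin. Primer over all nuclei ran from -0.48 to 0.43 for Mog, -0.41 to 0.62 for Mag, -0.21 to 0.81 for Mal and -0.28 to 1.14 for Opalin. Storage in the lineage cluster ran from -0.38 to 0.35 for Mbp, -0.18 to 0.39 for Mobp, -0.49 to 0.28 for Mog, -0.45 to 0.35 for Mag, -0.04 to 0.23 for Cnp, -0.08 to 0.42 for Mal and -1.04 to 0.39 for Opalin. In neuron-like nuclei storage ran from -0.16 to 0.17 for Mbp, -0.17 to 0.50 for Bcas1 and -0.10 to 0.63 for Opalin, and primer from -0.21 to 0.13 for Mbp and -0.74 to 0.15 for Mal.

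Of 1096 values, 107 of those that answer a comparison and 748 of the others were taken as kept. They kept their direction and their side of the threshold or moved less than the spread. Counts of members called were taken as kept when they changed little. By that rule the 4 members called by primer in neuron-like nuclei becoming 6 was taken as kept. Of the values that answer a comparison, 28 moved and 3 changed direction. Of the others, 69 moved, 70 changed direction, 33 gained a call and 38 lost one. The number of members called by primer moved in 10 settings and was kept in 4 over all nuclei. In the lineage cluster it moved in 12 and was kept in 6, and in neuron-like nuclei it moved in 1 and was kept in 16. Depth limits Mobp, Mal and Opalin in the Gpr17 and Enpp6 nuclei, where 3 UFIs are 0.101 per 10000.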

Other observations

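The 376 barcodes with glial and neuronal markers held all 8 members at levels between those of neuron-like and oligodendrocyte-like nuclei: Mbp 5.30 UFIs per 10000, Bcas1 2.27, Mobp 1.84, Mal 1.01, Mag 0.817, Mog 0.457, Cnp 0.412 and Opalin 0.35. They were 7.14% and 8% of barcodes in frozen brain without preindex, 2.65% and 2.15% in frozen preindexed, 4.2% and 5.15% in fresh without preindex and 1.58% in fresh preindexed, so every library without preindex held a larger share than every preindexed one. Bcas1 was 18.3% of the UFIs of the 8 genes in them, 20.5% in the whole lineage cluster and 8.07% in oligodendrocyte-like nuclei.

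Bcas1 in OPC-like nuclei was uneven. Its median over 66 nuclei was 3.91 UFIs per 10000, the highest nucleus held 93.9, and 14 nuclei held 10 or more, while 3 nuclei held as much Mbp and 1 as much Mobp. Pdgfra, a growth factor receptor of OPCs, was at 0 in the Gpr17 and Enpp6 nuclei, and Pdgfra and Cspg4 were at 0 in the Cnksr3 nuclei. Of the other OPC markers, Lhfpl3 was 68.1 in OPC-like and 7.17 in Gpr17 and Enpp6 nuclei, Megf11 11.3 and 0.439, and Tnr 72.4 and 184. Prr5l, a marker of mature oligodendrocytes, was 0.0676 in the Gpr17 and Enpp6 nuclei, 0.766 in the Cnksr3 nuclei and 26.2 in oligodendrocyte-like nuclei, in which Mal was also at its highest. Of the 13 oligodendrocyte markers, St18 (43.5 and 53), Cldn11, Ugt8a, Gjc3 and Myrf were lower in oligodendrocyte-like than in Cnksr3 nuclei, and the rest were higher. Within the oligodendrocyte-like nuclei, those with few and with many astrocyte transcripts had Prr5l at 16.7 and 31.6 and Mal at 12.5 and 6.60.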
